A study of Mus musculus with 6 samples.

Results

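The 7 genes described here, Gnal, Adcy3, Cnga2, Acsm4, S100a5, Rtp1 and Rtp2, are known as genes of the sensory neurons of the main olfactory epithelium, the tissue that detects odours in air. They were chosen by name, as a measure of olfactory tissue carried over into a dissection of the vomeronasal organ, and 7 of 7 were found among the 38561 genes of the table. Male CD-1 mice, which are outbred, gave 6 RNA-seq libraries of the vomeronasal organ. Of these, 3 followed pup exposure and 3 followed a control exposure whose nature the labels leave undescribed. The RNA sequenced was that pulled down by an anti-phospho-S6 antibody. S6 is a ribosomal protein whose phosphorylation is a mark of recent neuronal activity. The age of the animals, the duration of the exposures, and whether each library came from 1 animal or a pool were not stated in the labels. No genetic change is named for either group.

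In an olfactory neuron, an odorant receptor activates the G protein subunit encoded by Gnal, which stimulates the adenylyl cyclase encoded by Adcy3, and the cyclic AMP it makes opens a cation channel built around the subunit encoded by Cnga2. Rtp1 and Rtp2 encode proteins that carry odorant receptors to the cell surface. Acsm4 encodes an acyl-CoA synthetase known from the dorsal zone of the olfactory epithelium, and S100a5 a calcium-binding protein of mature olfactory neurons. Vomeronasal neurons use other G protein subunits, among them those of Gnai2 and Gnao1, while Omp, the olfactory marker protein, is made by mature neurons of both epithelia. Whether vomeronasal neurons also make Rtp1 and Rtp2 was not tested. Gnal and Adcy3 are also used by cells outside the nose, so they are not exclusive to olfactory neurons.

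The pup exposure libraries held 18199476 to 20871266 counts and the control exposure libraries 10590716 to 11240065, so depth was separated by group. The G protein genes of vomeronasal neurons were counted in every library, with Gnai2 at 167 to 432 CPM after pup exposure and 145 to 204 CPM after control exposure, and Gnao1 at 59.5 to 107 CPM after pup exposure and 37.0 to 70.7 CPM after control exposure (CPM, the count relative to library size, scaled by TMM). Omp, which does not tell the epithelia apart, stood at 664 to 831 CPM after pup exposure and 768 to 922 CPM after control exposure. The channel gene Trpc2, a defining vomeronasal gene, was not matched to a row and was not analysed here. Neither an olfactory epithelium library nor unprecipitated RNA was analysed here, so the counts cannot be turned into a share of olfactory tissue. In a phospho-S6 precipitate from bulk tissue, fewer cells of a type, less RNA per cell and weaker capture by the antibody cannot be told apart. Nothing in the labels ties replicates to separate animals, and the p-values therefore rest on a spread between libraries that may be technical.

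The 7 genes did not share one pattern over the 6 libraries, and 0 of 7 differed between exposures at an adjusted p under 0.05 in edgeR's quasi-likelihood test. At an unadjusted p under 0.05 the count was also 0 of 7. Over all 15498 genes tested, 0% were called at the adjusted threshold and 11% at the unadjusted one. DESeq2 called 1.03% of the 12301 genes to which it gave an adjusted p, and 0 of the 4 members among them. Limma-voom called 0.0516% of genes and 0 of the 7 members. DESeq2 gave no adjusted p to Adcy3, Cnga2 and Acsm4. The groups overlapped in 7 of 7 genes. Every pup exposure library was above every control exposure library in 10.1% of all tested genes, and below in 9.6%. Overlap was thus the common case. All 7 passed the filter on low counts. The log2 fold change, pup exposure over control exposure, was positive in 4 of them and negative in 3, with a median of 0.24, while 51.5% of all tested genes were positive and 48.5% negative.

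**Figure D1:**
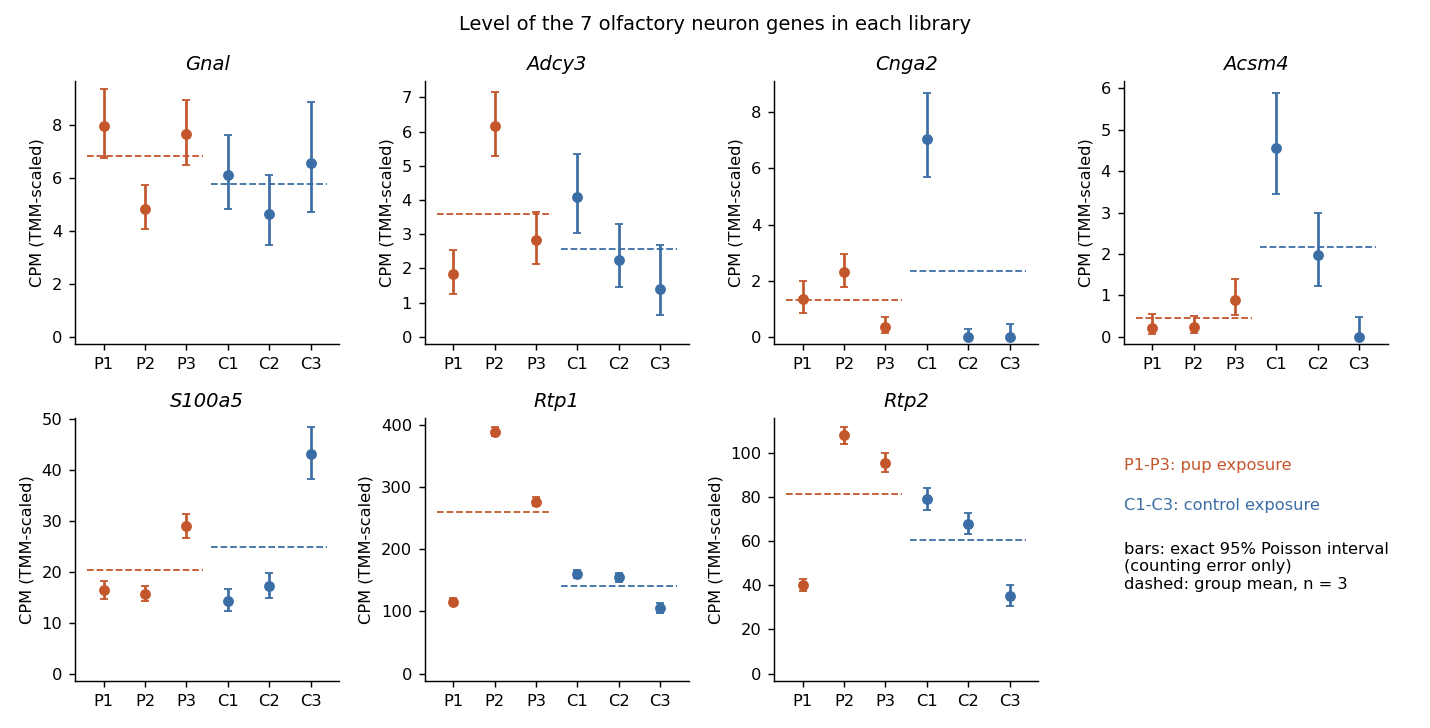
Level of each gene (CPM, linear axis) in the 3 pup exposure libraries (P1 to P3) and the 3 control exposure libraries (C1 to C3), with exact 95% Poisson intervals for counting error (to the level of 3 counts where the count is 0) and dashed group means. Cnga2 and Acsm4 peak in C1, Adcy3, Rtp1 and Rtp2 in P2 and S100a5 in C3, and in each panel the groups overlap.

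Levels fell into separate tiers when taken per kilobase of annotated exon. Rtp1 averaged 64.1 CPM per kilobase over the 6 libraries (range 33.7 to 125), S100a5 52.4 (33.2 to 99.8) and Rtp2 26.6 (13.2 to 40.5). The ranges of these neighbours in the order overlapped. The other 4 genes averaged 0.610 (Acsm4), 0.595 (Cnga2), 0.565 (Gnal) and 0.494 (Adcy3) CPM per kilobase, and their ranges also overlapped one another. Between the tiers there was no overlap, since the highest library of the lower tier was Cnga2 at 2.28 CPM per kilobase and the lowest of the upper tier was Rtp2 at 13.2. On the same scale Omp averaged 379, Gnai2 57.2 and Gnao1 6.53 CPM per kilobase. Annotated length bears on these levels. The exons of Gnal add up to 11172 bases over all its isoforms, which lowers its value per kilobase, and those of S100a5 to only 432 bases, about the size of a sheared fragment.

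Rtp1 (ENSMUSG00000033383), which brings odorant receptors to the cell surface, was the most abundant of the 7. It stood at 116, 389 and 276 CPM in pup exposure replicates 1, 2 and 3, against 160, 155 and 105 CPM in control exposure replicates 1, 2 and 3. Pup exposure replicates 2 and 3 exceeded each of the control exposure values and pup exposure replicate 1 among them. The means were 260 ± 137 CPM after pup exposure and 140 ± 30.1 CPM after control exposure (SD, n = 3 each). Its log2 fold change by edgeR's quasi-likelihood test was 0.89 (SE 0.47, 95% interval -0.12 to 1.91, adjusted p = 0.496, unadjusted p = 0.0793). With single libraries left out it ran from 0.49 (without pup exposure replicate 2) to 1.25 (without pup exposure replicate 1).

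Rtp2 (ENSMUSG00000047531), the paralogue of Rtp1 with the same role, stood at 40.1, 108 and 95.8 CPM after pup exposure, against 79.3, 68.0 and 35.3 CPM after control exposure. As with Rtp1, pup exposure replicate 2 was highest and control exposure replicate 3 lowest. The means were 81.4 ± 36.3 and 60.8 ± 22.8 CPM after pup and control exposure (SD, n = 3 each), and the edgeR log2 fold change was 0.42 (SE 0.46, 95% interval -0.58 to 1.41, adjusted p = 0.736). Each library held more counts of Rtp1 than of Rtp2, with ratios of 2.88, 3.59 and 2.88 after pup exposure and 2.02, 2.27 and 2.98 after control exposure. On the GRCm38 build, GENCODE M21 places Rtp1 at chr16:23429133-23433960 on the plus strand and Rtp2 at chr16:23925548-23932394 on the minus strand, 491588 bases apart. No 50-base word of either gene's longest transcript occurred in a transcript of another gene (0% shared), so exact shared stretches of that length do not mix their counts.

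The Rtp counts were also set against Omp, which mature neurons of both epithelia make, and against the receptors of the vomeronasal organ. Per 1000 counts of Omp, Rtp1 had 148, 586 and 332 counts after pup exposure and 173, 171 and 137 after control exposure. Per 1000 counts of vomeronasal and formyl peptide receptors, Rtp1 had 54.1, 122 and 94.6 counts after pup exposure and 79.7, 56.9 and 51.8 after control exposure. These receptor counts include Vmn2r88, a vomeronasal receptor at 442 to 700 CPM after pup exposure and 56.0 to 66.0 CPM after control exposure. Higher counts of Vmn2r88 lower this ratio after pup exposure. Rtp1 was counted at 673 and Rtp2 at 226 reads in control exposure replicate 3, where Cnga2 and Acsm4 were both at 0. The label of olfactory neuron genes is thus not matched by a common level or a common library pattern in these data.

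Gnal (ENSMUSG00000024524), the G protein of odorant transduction, varied least among the 7. It stood at 7.99, 4.85 and 7.66 CPM after pup exposure, against 6.11, 4.66 and 6.56 CPM after control exposure, from 42 to 155 counts a library. The highest library exceeded the lowest by 1.71 times, and replicate 2 was lowest in both groups. The edgeR log2 fold change was 0.24 (SE 0.51, 95% interval -0.86 to 1.35, adjusted p = 0.873). Gnal lies on chromosome 18 on the plus strand, and 852 of its 11172 exonic bases overlap exons of Mppe1 on the other strand. Of its 50-base words, 14.7% occur in transcripts of other genes. The sources used here do not say whether strand was used in counting, so reads in the overlap cannot be assigned. Mppe1 was counted at 4.18 to 7.66 CPM after pup exposure and 1.41 to 9.59 CPM after control exposure.

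Adcy3 (ENSMUSG00000020654), the adenylyl cyclase, stood at 1.82, 6.16 and 2.82 CPM after pup exposure, against 4.08, 2.24 and 1.41 CPM after control exposure, from 9 to 174 counts a library. Pup exposure replicate 2 was highest and control exposure replicate 3 lowest, the same libraries as for Rtp1 and Rtp2. The edgeR log2 fold change of 0.47 (SE 0.76, 95% interval -1.19 to 2.13, adjusted p = 0.831) turned to -0.16 without pup exposure replicate 2. Adcy3 lies at chr12:4133103-4213525 on the plus strand. It shares 1380 exonic bases with Cenpo on the other strand, and 21.4% of its 50-base words occur in Cenpo transcripts, so part of its count is uncertain. Cenpo stood at 1.23, 3.12 and 2.42 CPM after pup exposure and 3.92, 4.75 and 0.156 CPM after control exposure.

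Cnga2 (ENSMUSG00000005864), the subunit of the cation channel opened by cyclic AMP, had 25, 65 and 7 counts after pup exposure, against 90, 0 and 0 counts after control exposure. In CPM these were 1.34, 2.30 and 0.346 after pup exposure and 7.06, 0 and 0 after control exposure. Taken as a limit of 3 counts, a count of 0 allows up to 0.269 CPM in control exposure replicate 2 and 0.469 CPM in control exposure replicate 3, by counting error alone. Control exposure replicate 1 held the highest level of the series. At this depth control exposure replicate 3 could not be placed below pup exposure replicate 3. The edgeR log2 fold change was -0.84 (SE 1.54, 95% interval -4.19 to 2.51, adjusted p = 0.854). Without control exposure replicate 1, where the other control exposure libraries are at 0, its fitted value was 7.50 (adjusted p = 0.673), which depends on the prior count and is no bound.

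Acsm4 (ENSMUSG00000047026), the acyl-CoA synthetase of the dorsal zone, had 4, 7 and 18 counts after pup exposure, against 58, 22 and 0 counts after control exposure. Its levels were 0.215, 0.248 and 0.890 CPM after pup exposure and 4.55, 1.97 and 0 CPM after control exposure, where 0 allows up to 0.469 CPM (3 counts). Control exposure replicates 1 and 2 lay above every pup exposure library. Control exposure replicate 3 had no count, and its limit lies above pup exposure replicates 1 and 2, so its place among them could not be told at this depth. The edgeR log2 fold change was -2.28 (SE 1.35, 95% interval -5.21 to 0.66, adjusted p = 0.535), and -1.16 without control exposure replicate 1. Nqo1, a quinone reductase that also marks the dorsal zone, had 52.3, 83.1 and 85.7 CPM after pup exposure and 139, 169 and 118 CPM after control exposure (log2 fold change -0.95, SE 0.37, edgeR adjusted p = 0.425). Unlike Acsm4, it peaked in control exposure replicate 2 and was well counted in control exposure replicate 3. Which cells gave the Nqo1 counts was not tested.

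Cnga2 (chrX:71991849-72010218, plus strand) and Acsm4 (chr7:119690026-119714565, plus strand) were the members with both a count of 0 in some library and their peak in control exposure replicate 1. The 250 bases before their starts are shown because they matched part of the Olf/Ebf site, the sequence bound by Ebf proteins in olfactory neuron promoters. Among the 6 windows kept for the members, these alone held the first 9 letters of the core of that site. The full core was found in Acsm4 only. The sequences come from RefSeq on GRCm38.p6, are written 5′ to 3′ on the gene's strand, and have the matched bases in capitals.
Cnga2, chrX:71991599-71991848: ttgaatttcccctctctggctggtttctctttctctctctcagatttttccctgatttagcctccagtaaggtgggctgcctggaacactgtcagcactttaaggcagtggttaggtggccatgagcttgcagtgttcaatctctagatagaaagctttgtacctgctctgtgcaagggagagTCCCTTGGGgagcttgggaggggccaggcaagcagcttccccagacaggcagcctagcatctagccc
Acsm4, chr7:119689776-119690025: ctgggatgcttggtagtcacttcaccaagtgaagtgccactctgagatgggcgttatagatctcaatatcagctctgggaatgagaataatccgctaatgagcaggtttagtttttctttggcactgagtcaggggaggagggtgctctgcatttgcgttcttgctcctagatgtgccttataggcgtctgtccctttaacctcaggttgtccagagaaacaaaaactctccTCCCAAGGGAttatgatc
The palindromic core, TCCCNNGGG closed by an A, was searched on both strands and matched in Acsm4, 18 bases before the start, and in 0.779% of 32851 promoter windows of that length. The form without the closing A, chosen after the first search and overlapping the core, also matched in Cnga2, 67 bases before the start, and in 5.6% of windows. The homeodomain motifs TAATTA and TAATTG, found in 4.84% and 7.17% of windows, matched in 0 of 6 windows of Adcy3, Cnga2, Acsm4, S100a5 and Rtp2. Windows for Gnal and Rtp1 were not analysed here. A match is a description of the letters and not a bound site.

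S100a5 (ENSMUSG00000001023, chr3:90608523-90611780, plus strand), the calcium-binding protein, stood at 16.4, 15.7 and 29.0 CPM after pup exposure, against 14.3, 17.2 and 43.1 CPM after control exposure. Replicate 3 was highest in both groups. The edgeR log2 fold change was -0.29 (SE 0.49, 95% interval -1.35 to 0.78, adjusted p = 0.842). It was 0.33 without control exposure replicate 3 and 0.14 with library totals in place of TMM, so its direction was not stable. Per 1000 Omp counts S100a5 had 20.9, 23.6 and 34.9 counts after pup exposure and 15.6, 19.0 and 56.1 after control exposure.

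The sum of the 7 genes was set mainly by the Rtp pair. It reached 183, 526 and 413 CPM after pup exposure, against 275, 249 and 192 CPM after control exposure, and the groups overlapped. The mean sum was 374 ± 175 CPM after pup exposure and 238 ± 42.7 CPM after control exposure (SD, n = 3 each), a ratio of 1.57. Rtp1 and Rtp2 made up 84.9%, 94.5% and 90.1% of the summed counts after pup exposure and 86.9%, 89.5% and 73.3% after control exposure. Without them the sum of the other 5 genes was 27.7, 29.2 and 40.7 CPM after pup exposure and 36.1, 26.1 and 51.1 CPM after control exposure, a ratio of 0.862. As a share of all counts the 7 genes held 0.0188%, 0.0728% and 0.0400% after pup exposure and 0.0312%, 0.0261% and 0.0116% after control exposure.

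**Figure D2:**
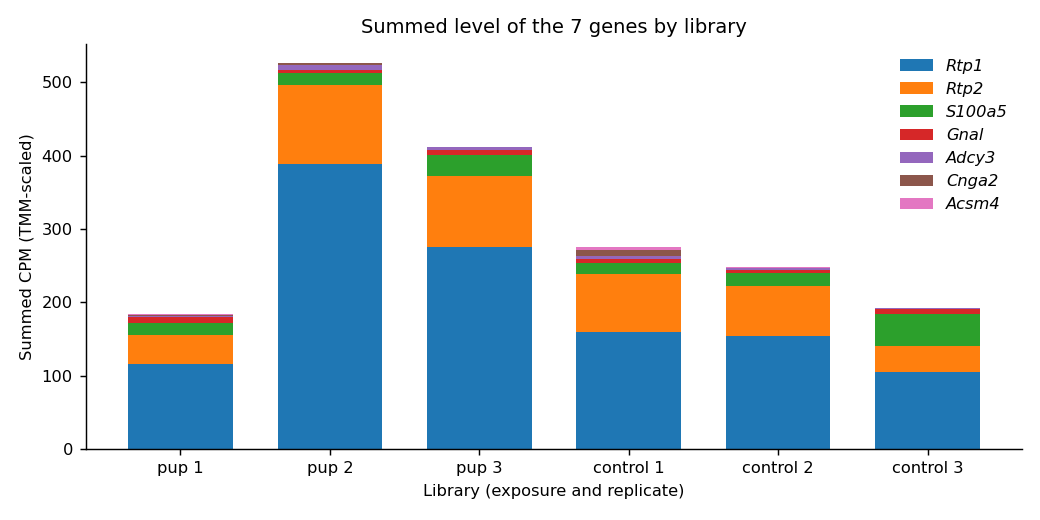
Summed level of the 7 genes (CPM, bars from 0) in each library, stacked by gene, pup exposure libraries to the left. Rtp1 and Rtp2 fill most of each bar, and pup exposure replicate 2 is the tallest at 526 CPM.

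The pattern over libraries was compared by the root mean square distance between log2 levels (CPM plus 0.5), each centred on its own mean over the 6 libraries. The distance was 0.27 between Rtp1 and Rtp2, 0.31 between Adcy3 and Rtp2 and 0.37 between Adcy3 and Rtp1. Gnal lay 0.31 from Omp and 0.45 from Gnai2, closer than to any other member. S100a5 lay 0.36 from Gng8, a G protein gamma subunit, and 0.53 from Gnal. Cnga2 was at least 1.09 from every other member, and 0.82 from Stoml3, a stomatin-family protein of olfactory neuron cilia. Acsm4 was 1.03 or more from every other member, and 0.72 from Cnga4, a further subunit of the olfactory channel. Stoml3 and Gng8 were picked for this comparison after their values were seen.

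**Figure D3:**
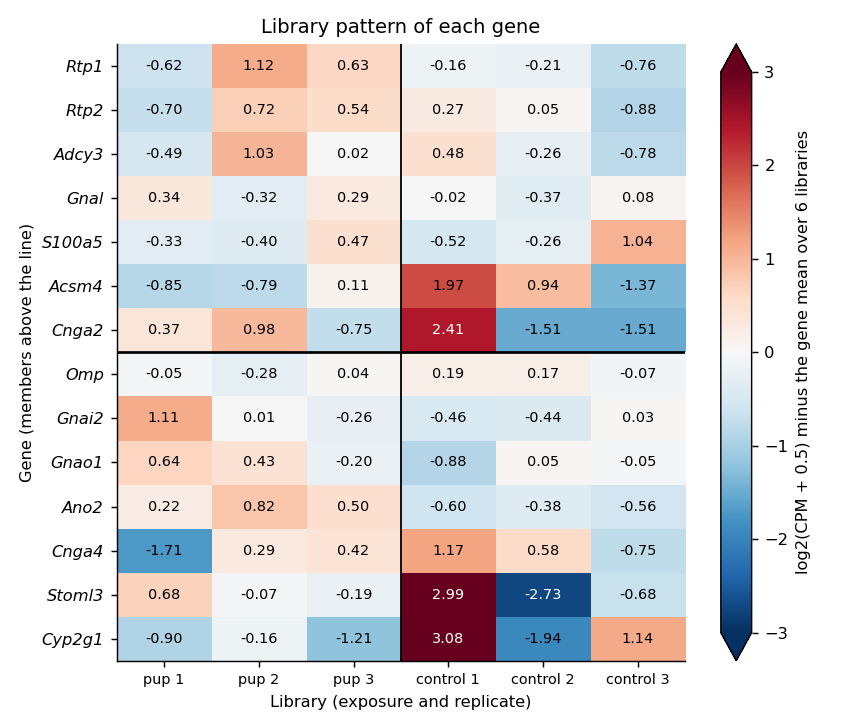
Log2(CPM + 0.5) minus each gene's mean over the 6 libraries (colour and printed value, red above the mean and blue below), with the 7 members above the line and comparison genes beneath it. Cnga2 (2.41) and Acsm4 (1.97) are highest in control exposure replicate 1, as are Stoml3 (2.99) and Cyp2g1 (3.08), while Rtp1 (1.12) and Adcy3 (1.03) are highest in pup exposure replicate 2. Bpifa1, a respiratory lining gene not drawn here, was also highest in control exposure replicate 1 (3.18).

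Against the mean pattern of the 7 members, which was highest in control exposure replicate 1 (0.63) and lowest in control exposure replicate 3 (-0.60), the 8 nearest of the other tested genes were Fam45a, Ptcd3, Ric8b, Wars2, Ankrd46, Glyr1, Crnkl1 and Wdr77. Their distances ran from 0.085 to 0.13 over the 6 libraries. The members themselves lay 0.31 (Adcy3) to 1.11 (Cnga2) from their own mean, so the mean stands for none of them closely. The choice of neighbours was sensitive to settings: 1 of the 8 was kept with a pseudocount of 2 CPM and 3 of the 8 with library totals only.

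The members' partners in odorant transduction numbered 12, all tested, with 0 past the adjusted threshold in edgeR in either direction. At an unadjusted p under 0.05, 4 were higher after pup exposure, against 6.31% of all tested genes, and 0 were lower, against 4.67%. Over the list the median log2 fold change was 0.42, where the median of all genes was 0.030. Ano2, a calcium-gated chloride channel found in both epithelia, had 31.9, 48.7 and 38.8 CPM after pup exposure and 17.8, 20.9 and 18.3 CPM after control exposure (log2 fold change 1.07, SE 0.36, edgeR adjusted p = 0.421). Grk3, a kinase that desensitises receptors (1.16, SE 0.44), Slc12a2, a chloride importer (1.02, SE 0.39), and Cngb1, a channel subunit (0.90, SE 0.40), had edgeR adjusted p between 0.424 and 0.447. In 5 of the 12 partners, these 4 and Gnb1, every pup exposure library was above every control exposure library, as in 10.1% of all tested genes, and in 0 of 12 the reverse held.

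Of the 12 partners, 8 had a positive log2 fold change and 4 a negative one. Among the negative ones was Cnga4, with 3.70, 16.3 and 17.9 CPM after pup exposure and 30.5, 20.1 and 7.66 CPM after control exposure (log2 fold change -0.62, SE 0.62, edgeR adjusted p = 0.709). Stoml3 had 9.60, 5.49 and 4.99 CPM after pup exposure and 49.3, 0.448 and 3.44 CPM after control exposure. Its log2 fold change of -1.41 (SE 1.07, edgeR adjusted p = 0.616) turned to 1.84 without control exposure replicate 1. Ric8b, which binds the Gnal protein and acts on its activation, had 4.13, 5.84 and 5.69 CPM after pup exposure and 7.37, 3.77 and 2.66 CPM after control exposure (log2 fold change 0.17, SE 0.59, edgeR adjusted p = 0.927).

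Genes of olfactory receptor choice and transport counted 10, of which 9 were tested and 0 passed. At an unadjusted p under 0.05, 3 of 9 were higher, against 6.31% of all tested genes, and 0 lower, against 4.67%. The median log2 fold change was 0.43, where that of all genes was 0.030. Reep1, a further carrier of receptors to the surface, had 15.4, 33.3 and 31.4 CPM after pup exposure and 13.7, 11.2 and 14.2 CPM after control exposure (log2 fold change 1.03, SE 0.42, edgeR adjusted p = 0.437). The transcription factors Ebf2 (1.09, SE 0.42) and Ebf3 (0.86, SE 0.38) had edgeR adjusted p of 0.424 and 0.447. Ebf1 stood at 256 ± 84.7 CPM after pup exposure and 167 ± 17.0 CPM after control exposure (SD, n = 3 each; log2 fold change 0.62, SE 0.39, edgeR adjusted p = 0.554). These factors are also made by vomeronasal neurons. In the list of 6 zone and axon map genes, 0 passed, and at an unadjusted p under 0.05 there were 0 higher, against 6.31% of all tested genes, and 1 lower, Nqo1, against 4.67%.

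**Figure D4:**
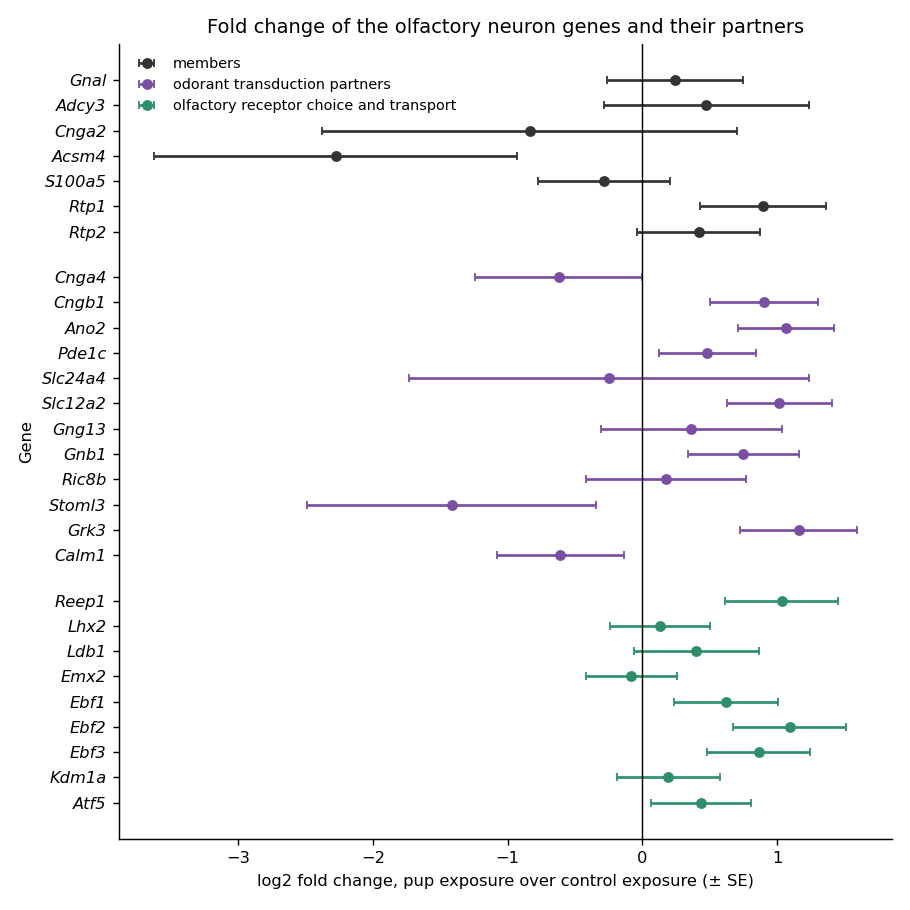
Log2 fold change, pup exposure over control exposure, with its standard error, from edgeR's quasi-likelihood fit for the 7 members (dark), their 12 transduction partners (purple) and the 9 tested genes of receptor choice and transport (green). Acsm4 at -2.28 and Stoml3 at -1.41 lie farthest to the left, and Grk3 at 1.16 farthest to the right.

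Odorant receptor genes, the molecules that the Rtp proteins carry, had few counts. Of 1014 genes named Olfr, 818 had 0 counts in all libraries and 6 passed the filter. In edgeR 0 of these 6 passed the adjusted threshold. At an unadjusted p under 0.05, 2 were lower, against 4.67% of all tested genes, and 0 higher, against 6.31%. Of these 2, Olfr769 passed the filter through its control exposure libraries alone. The filter thus favoured its lower direction, and the count of 2 is not a test of direction. The counts of all Olfr genes added up to 354, 436 and 312 after pup exposure and to 719, 312 and 155 after control exposure. The vomeronasal and formyl peptide receptors of the same libraries had 39824, 89633 and 58974 counts after pup exposure and 25586, 30284 and 12999 counts after control exposure. The olfactory share of all these receptor counts was 0.881%, 0.484% and 0.526% after pup exposure and 2.73%, 1.02% and 1.18% after control exposure. Control exposure replicate 1 stood highest (95% Wilson interval 2.54% to 2.94%), and intervals cover counting error only.

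The share averaged 0.630% ± 0.218 after pup exposure and 1.64% ± 0.947 after control exposure (SD, n = 3 each), with every pup exposure library below every control exposure library (two-sided p = 0.1 by exact permutation, which cannot go lower with 3 libraries a group). The difference of -1.01 percentage points became -0.47 without control exposure replicate 1. In summed CPM the groups were also separated, at 19.0, 15.4 and 15.4 after pup exposure and 56.4, 28.0 and 24.2 after control exposure. As a share of all counts they overlapped, with 0.00195%, 0.00214% and 0.00150% after pup exposure and 0.00640%, 0.00294% and 0.00146% after control exposure. Control exposure replicate 3, which has the smallest TMM factor (0.605), is the library that moves between these scales. The share, unlike the summed CPM, is divided by counts that include the vomeronasal receptor Vmn2r88. It stood at 442, 444 and 700 CPM after pup exposure and 66.0, 56.0 and 60.6 CPM after control exposure. Its log2 fold change was 3.12 (SE 0.41, edgeR adjusted p = 0.0938). Of the 97 tested receptors of the V2R family, 69 leaned towards pup exposure and 28 towards control exposure. Higher Vmn2r88 counts lower the share after pup exposure, and the share without Vmn2r88 was not tested.

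**Figure D5:**
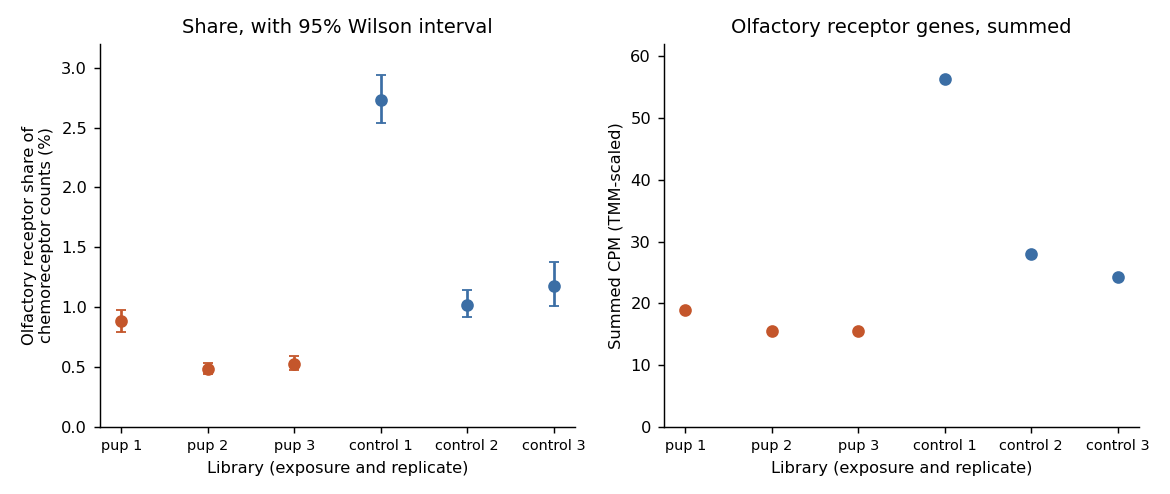
Olfactory receptor share of chemoreceptor counts in percent, with 95% Wilson intervals (left), and the summed level of olfactory receptor genes in CPM (right), by library. The pup exposure libraries lie between 0.484% and 0.881%, and control exposure replicate 1 stands at 2.73%.

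The most counted receptor held 23.2%, 15.4% and 45.5% of the olfactory receptor counts in pup exposure replicates 1, 2 and 3. In control exposure replicates 1, 2 and 3 it held 41.7%, 22.1% and 22.6%. It was not the same receptor in each library, and in pup exposure replicates 1 and 2 it was none of those named below. Olfr124 had 29, 21 and 3 counts after pup exposure and 300, 0 and 35 after control exposure, which was 41.7% of the olfactory receptor counts of control exposure replicate 1. Its log2 fold change was -3.57 (SE 1.38, edgeR adjusted p = 0.424), and -1.71 without that library. Olfr692, an odorant receptor reported in vomeronasal neurons that respond to pup odours, had 43, 57 and 142 counts after pup exposure and 63, 69 and 12 after control exposure. In CPM it stood at 2.31, 2.02 and 7.02 after pup exposure and 4.94, 6.19 and 1.88 after control exposure, with overlapping groups (log2 fold change -0.21, SE 0.73, edgeR adjusted p = 0.928). Olfr769 had 0, 1 and 1 counts after pup exposure and 25, 27 and 10 after control exposure (log2 fold change -5.76, SE 1.34, edgeR adjusted p = 0.375). Only its control exposure libraries were high enough to pass the filter, which favours this direction. Olfr1512 had 0, 17 and 18 counts after pup exposure and 25, 19 and 9 after control exposure (log2 fold change -1.75, SE 1.26, edgeR adjusted p = 0.602).

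Markers of other cells of the nasal lining were counted beside the members. Supporting cells of the olfactory epithelium had 6 tested markers of 8 listed, with 0 past the adjusted threshold in edgeR. At an unadjusted p under 0.05, 3 were lower, against 4.67% of all tested genes, and 0 higher, against 6.31%. Cyp2g1, a cytochrome of olfactory mucosa, stood at 3.11, 5.56 and 2.42 CPM after pup exposure and 56.4, 1.26 and 14.4 CPM after control exposure. Its peak was again control exposure replicate 1, with log2 fold changes of -2.70 (SE 0.94, edgeR adjusted p = 0.424) and, without that library, -1.05. Log2 fold changes were negative in 5 of the 6 tested supporting cell markers and positive in 1. The whole list summed to 2304 to 2456 CPM after pup exposure and 4470 to 5727 CPM after control exposure. Most of this sum came from 2 genes, so it does not stand for each marker. Cbr2, a carbonyl reductase, stood at 906 to 1533 CPM after pup exposure and 2839 to 3192 CPM after control exposure. Cyp2f2, a cytochrome, stood at 407 to 803 CPM after pup exposure and 852 to 1557 CPM after control exposure. The log2 fold change of Cbr2 was -1.29 (SE 0.42, edgeR adjusted p = 0.412), and DESeq2 called it lower (adjusted p = 0.0338), while its adjusted p over the alternatives reached 0.831. Cyp2g1 was called lower in edgeR without a filter (adjusted p = 0.000619), with values up to 0.831 over its alternatives. The 6 respiratory lining markers were all tested, with 0 past either threshold, 4 positive and 2 negative log2 fold changes and a median of 0.099. Tekt1, a protein of motile cilia and the lowest in p, had 29.4, 23.7 and 19.1 CPM after pup exposure and 51.6, 38.0 and 33.9 CPM after control exposure (log2 fold change -0.77, SE 0.36, edgeR adjusted p = 0.461). Bpifa1, of the same list, had 78.0, 25.6 and 298 CPM after pup exposure and 678, 4.30 and 87.5 CPM after control exposure. Its log2 fold change was -0.94 (SE 1.20, edgeR adjusted p = 0.78). Like Tekt1 it peaked in control exposure replicate 1, so that peak was not confined to genes of the olfactory epithelium. The rest of this list peaked in other libraries. The part of these nasal lining cells in the values of Cnga2 and Acsm4 was not tested.

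Separate classes of olfactory neurons left few counts. Gucy2d, the guanylyl cyclase of a separate class of olfactory neurons, had 1, 2 and 0 counts after pup exposure and 0 in each control exposure library. Trace amine receptors, carried by a further class of olfactory neurons, had 50, 1 and 5 counts after pup exposure and 1, 0 and 1 after control exposure over 11 genes. Among microvillous cell markers, the channel gene Trpm5 had 1, 4 and 6 counts after pup exposure and 0 in each control exposure library. Its pup exposure levels were 0.054, 0.142 and 0.297 CPM. A count of 0 allows up to 0.235, 0.269 and 0.469 CPM (3 counts) in control exposure replicates 1, 2 and 3. The direction of Trpm5 thus could not be told at this depth. Ascl3, a transcription factor, had 0, 1 and 10 counts after pup exposure and 54, 9 and 7 after control exposure. Cftr, a chloride channel, had 483, 676 and 169 counts after pup exposure and 115, 121 and 119 after control exposure, which in CPM overlapped between groups. Of the vomeronasal neuron list, which holds Omp, 7 of 8 genes were tested and 0 passed. At an unadjusted p under 0.05, 1 was higher, against 6.31% of all tested genes, and 0 lower, against 4.67%. Log2 fold changes were positive in 5 and negative in 2. Their median was 0.58, against 0.42 for the transduction partners and 0.43 for the genes of receptor choice and transport. The vomeronasal neuron list summed to 1257 to 1608 CPM after pup exposure and 1259 to 1342 CPM after control exposure.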

How the data were processed

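The authors deposited whole-number read counts per Ensembl gene for each library, not normalized. Per the labels' protocols, an anti-phospho-S6 antibody precipitated RNA from lysed vomeronasal organs, and a low-input kit turned it into cDNA that was sheared. Reads were placed on GRCm38, per the submitters' processing notes. For the aligner, the counting tool, the strand setting and the annotation release, the entry is: not given in the sources used here. Gene IDs were named from GENCODE M21 (36639 of 38561 matched), which also gave positions, exon lengths and the 50-base words shared between transcripts.

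Counts were tested with edgeR's quasi-likelihood test (edgeR 4.0.16, R 4.3.3) on an intercept and the group, after filterByExpr (minimum count 10, minimum total 15) and TMM scaling, with Benjamini-Hochberg adjustment over 15498 genes at 0.05. The biological coefficient of variation was 0.535 in common. Standard errors come from the F statistic. The script was tested on simulated data. Counts of any pair of replicates differed by more than sampling noise (chi-square 90.1 to 343 for each degree of freedom), and all were kept as separate samples. Depth was 10590716 to 20871266 counts a library, and intervals cover counting error only.

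Alternatives were scaling by RLE, by upper quartile or by library totals only, and either no filter on low counts or one of 1 CPM in 3 libraries with 50 counts over the series. Others were DESeq2 1.42.0, limma-voom (limma 3.58.1), a block for the replicate number, and each library left out. Added after seeing the data were the sum without Rtp1 and Rtp2, other settings for pattern likeness, and the shorter promoter motif. The members and lists were chosen with earlier results of these data known. Genes named are the members, up to 4 genes of a list by smallest p, Omp, Gnai2, Gnao1, Cnga4, Ano2 and Cyp2g1, the olfactory receptors with the highest level or smallest p, and the 8 nearest in pattern. Stoml3, Gng8, Ric8b, Gnb1, Gucy2d, Trpm5, Ascl3, Bpifa1, Vmn2r88 and the overlapping genes Mppe1 and Cenpo were named after their values were seen. Pde2a, Ugt2a1 and Trpc2 were not matched to a row and were not analysed here.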

Additional observations from a re-analysis of the deposited data

How the results depend on the processing

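The number of members called was 0 under each alternative run, over 4 members in DESeq2, which gave no adjusted p to Adcy3, Cnga2 and Acsm4, over 6 with the stricter filter, which removed Acsm4, and over 7 elsewhere. Over all genes edgeR called 0, against 120 without a filter, 127 in DESeq2 and 8 in limma-voom, and 0 with each single library left out. Olfactory receptors called were 0 in edgeR and 1, Olfr124, without a filter (0 with single libraries left out). Of the other genes named, Cbr2 was called in DESeq2 and Cyp2g1 without a filter. Some fold changes turned direction. Cnga2 was at -0.84 in edgeR, 1.75 in limma-voom, 1.99 with the replicate block, and between -1.49 and 7.50 with single libraries left out. Stoml3 was at -1.41, 0.32 in limma-voom, 0.39 with the replicate block, and -2.04 to 1.84 with single libraries left out. With library totals only, which moved the median of all genes by 0.28, S100a5 was at 0.14 and Omp at 0.037. With single libraries left out S100a5 ran from -0.60 to 0.33, Adcy3 from -0.16 to 0.98 and Olfr692 from -1.02 to 0.098. The summed level ratio of 1.57 ran from 1.25 to 1.97 with single libraries left out, and was 0.862 without Rtp1 and Rtp2. The receptor share difference ran from -1.33 to -0.47 percentage points. The cause of these shifts was not tested. Deviations of same-numbered libraries correlated at -0.060, 0.18 and 0.10, so the numbers were not taken to pair samples, and the replicate block called 0 genes. Counts of 0 to 90 per library limit Cnga2 and Acsm4.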
